A study of Mus musculus with 11 samples.

Results

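The genes described here are 33 members of the p53 and DNA damage response, chosen by symbol from the 38406 genes listed for imiquimod-treated mouse skin with and without Trex2. They comprise 25 genes grouped here as transcriptional targets of p53 and 8 checkpoint and repair genes, among them Trp53 itself. Whether p53 drives each of the 25 in this skin was not tested. All 33 were among the 13215 genes tested because their mean normalized count reached 10. Trex2 is a keratinocyte nuclease that removes bases from the 3′ ends of DNA, so the comparison addresses whether skin without this nuclease differs in transcripts of the response to damaged DNA. RNA was sequenced from back skin of 6 Trex2-/- mice and 5 wt mice, described by the submitters as biological replicates. All were female C57BL/6 mice aged 8 to 10 weeks, and every mouse of both genotypes had 125 mg of a cream with 5% imiquimod (IMQ) spread on its shaved back daily for 4 days, with skin taken 24 hours after the last dose. Imiquimod activates the innate receptor TLR7 and gives psoriasis-like inflammation. No skin without imiquimod was analysed here, and the loss of Trex2 is not restricted to keratinocytes by anything the labels state.

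The kinases ATM and ATR sense broken and stalled DNA, and they pass the signal through CHEK2 and CHEK1 to p53 and to the cell cycle machinery. p53 is held low by the ubiquitin ligase MDM2, and when stabilized it binds DNA as a tetramer and induces genes of cell cycle arrest, cell death, repair and its own inhibition. The kinases and p53 are regulated largely at the protein level, so the level of target transcripts is the part of the response that RNA can report. In epidermis the p53 relative p63 binds closely similar sites and drives several of the same genes.

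The sites through which p53 acts are pairs of a decamer half-site, a run of purines, the core C, A or T, A or T, G, and a run of pyrimidines. RefSeq promoter windows of GRCm38.p6, the 250 bases before a gene's start, were matched by symbol for 17 of the 25 targets and 7 of the 8 checkpoint and repair genes. A match to the half-site, which reads alike on both strands, was found for 7 of the 17 targets, for 1 of the 7 checkpoint and repair genes, and for 8.2% of all 27025 genes with such a window. The first window below belongs to Cdkn1a, the best known target. It held 2 exact matches to the half-site, in capitals, 73 and 51 bases before the most upstream RefSeq start. These matches do not adjoin, so no pair of exact matches was identified. Decamers with a mismatch were not marked. The decamer directly after the second match is of that kind, departing from the half-site at its first base alone. The second window belongs to Atr, the only member whose genotypes did not overlap, and it held no match. Both are written 5′ to 3′ and lie before the gene in GENCODE M21, where the printed Cdkn1a window stops.
Cdkn1a, chr17:29090729-29090975, + strand: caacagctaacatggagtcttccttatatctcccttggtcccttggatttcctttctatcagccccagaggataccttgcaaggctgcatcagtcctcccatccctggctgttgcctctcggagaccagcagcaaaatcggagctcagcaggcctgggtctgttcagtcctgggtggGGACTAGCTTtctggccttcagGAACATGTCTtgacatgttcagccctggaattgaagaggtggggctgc
Atr, chr9:95857347-95857596, + strand: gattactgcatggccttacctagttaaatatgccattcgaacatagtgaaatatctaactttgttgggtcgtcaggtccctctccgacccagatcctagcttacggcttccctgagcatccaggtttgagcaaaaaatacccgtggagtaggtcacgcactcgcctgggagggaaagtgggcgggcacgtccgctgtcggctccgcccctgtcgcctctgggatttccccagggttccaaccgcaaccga
The remaining members with a match are shown as the half-site in capitals with 10 bases on either side. This allows the matches of targets to be compared with that of Trp53. Each is a lone exact match and not a pair, sites outside the windows were not searched, and binding of p53 was not tested. The matches of Mdm2, Ccng1 and Trp53 lie before the gene. Those of Gadd45a and Aen lie in an exon of a transcript that GENCODE starts farther upstream. Those of Sesn1 and Polk lie in an intron before an internal start.
Mdm2, chr10:117710925-117710954, - strand: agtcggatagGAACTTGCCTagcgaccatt
Ccng1, chr11:40755452-40755481, - strand: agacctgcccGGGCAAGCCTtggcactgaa
Gadd45a, chr6:67037428-67037457, - strand: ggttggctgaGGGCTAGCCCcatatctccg
Aen, chr7:78895927-78895956, + strand: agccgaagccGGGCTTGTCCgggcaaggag
Sesn1, chr10:41887256-41887285, + strand: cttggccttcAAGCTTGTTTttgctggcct
Polk, chr13:96519399-96519428, - strand: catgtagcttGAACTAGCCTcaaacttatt
Trp53, chr11:69580274-69580303, + strand: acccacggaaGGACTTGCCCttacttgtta
Other short motifs were searched on both strands of the same windows, and none of them contains another. CCAAT was present for 12 of 17 targets, 5 of 7 checkpoint and repair genes and 37.5% of all genes. TATAAA was present for 3 of 17 targets, 1 of 7 checkpoint and repair genes and 14.3% of all genes. The E2F consensus, TTTNNCGC with G or C at each N, was found for 0 of 17 targets, 1 of 7 checkpoint and repair genes (Chek2) and 2.16% of all genes.

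Values are normalized counts, the authors' read counts divided by 1 size factor per library. Depth was 3125366 to 15557862 reads in knockout libraries and 1208896 to 5853454 reads in wild-type libraries. Over these libraries 3 reads were worth 1.04 to 13.5 normalized counts. Median depth was 8579772.5 reads in knockout and 3493919 in wild-type libraries. Values with depth as a covariate therefore cannot fully tell depth from genotype. Trex2 had 1.85 ± 0.91 normalized counts in knockout skin (SD, n = 6) and 1479.6 ± 446 in wild-type skin (SD, n = 5), and each library carried the level its label gives. Knockout replicates 9 and 12 stood apart in the summed level of 8 differentiated keratinocyte markers (40165 and 27456 normalized counts). The other 4 knockout libraries had 5933 to 10697 and wild-type libraries 2901 to 17495. The median log2 fold change of these markers, knockout over wild type, was 2.21. Without replicates 9 and 12 it was 1.14, with all 8 markers still above 0. Replicates 9 and 12 also had the highest sums of 12 proliferation markers, with a range of 2993 to 5341 in knockout and 2890 to 3344 in wild-type libraries. The summed neutrophil markers ran the other way, from 15980.5 to 81629 in knockout and from 45178 to 109636 in wild-type libraries. No marker of these lists was at 0 in all libraries, and the part of cell makeup in the values below was not tested. The marker lists used as covariates followed genotype, with log2 fold changes above 0 for all 8 differentiated keratinocyte and all 12 proliferation markers. Values with such a covariate therefore cannot tell cell makeup from genotype.

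No member passed the test between genotypes. limma on log2(normalized count + 1), with Benjamini-Hochberg adjustment over all 13215 genes, called 0 of the 33 members and 2 genes in all (0.0151%), at a threshold of 0.05. At an unadjusted p under 0.05, 8 of 33 members passed, against 24.4% of all genes tested. They were Atr, Mre11a, Perp, Phlda3 and Plk3 with higher and Gadd45g, Gadd45b and Fas with lower means in knockout. edgeR on whole reads recovered from the normalized counts called 0 members and 0.0303% of genes. DESeq2 on the same reads called 1 member, Atr, as higher in knockout, and 5.66% of the genes to which it gave an adjusted p (3.02% higher and 2.64% lower). It gave none to Bbc3, Ddb2 and Chek1. When wild-type replicate 4 was left out, limma called 740 genes (5.6%), with 0 members among them. The lowest limma adjusted p was 0.108 among the checkpoint and repair genes and 0.133 among the targets.

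The medians of the targets and of the checkpoint and repair genes lay on different sides of that of all genes. Of the 25 targets, 10 had a log2 fold change above 0 (knockout over wild type), with a median of −0.09. Of the 8 checkpoint and repair genes, 7 had a log2 fold change above 0, with a median of 0.38. Over all genes tested the median was 0.01, and 51% lay above 0. Without knockout replicates 9 and 12 the medians were −0.01 for the targets, with 12 of 25 above 0, and 0.26 for the checkpoint and repair genes, with 6 of 8 above 0, against 51.5% of all genes. The median of the targets turned positive with differentiated keratinocyte markers (0.030) or proliferation markers (0.028) as a covariate. That of the checkpoint and repair genes was 0.20 with the first and 0.17 with the second. With depth as a covariate the medians were −0.10 for the targets and 0.26 for the checkpoint and repair genes. The difference between the lists was not tested, and in bulk skin fewer cells of a type and less RNA per cell cannot be told apart.

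**Figure D1:**
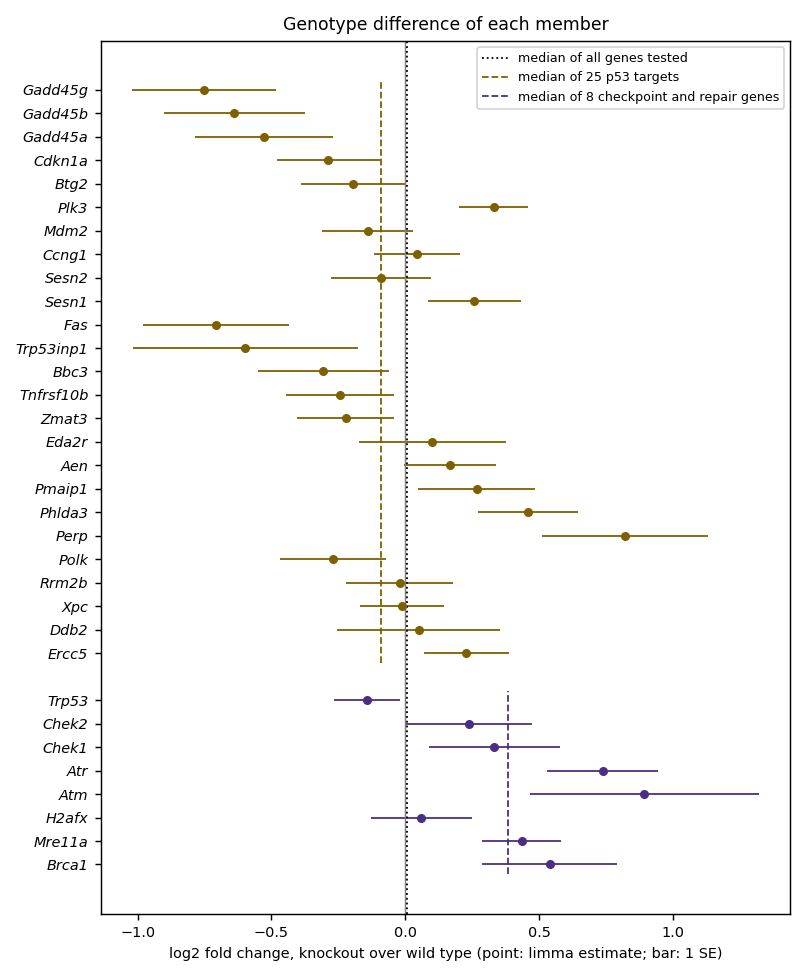
Log2 fold change of each member on the log2(normalized count + 1) scale, knockout over wild type, with a bar of 1 SE from limma; dashed lines mark the median of each list and the dotted line the median of all genes tested. The targets spread from −0.75 (Gadd45g) to 0.82 (Perp) around a median of −0.09, and 7 of the 8 checkpoint and repair genes lie above 0.

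Trp53 transcripts, which encode p53 itself, lay within a narrow range. The lowest, median and highest knockout libraries had 362, 407 and 448 normalized counts, and wild-type replicates 2 to 6 had 475, 528, 382, 503 and 370.3. Knockout replicate 8 lay just below the wild-type range, the other knockout libraries lay inside it, and the groups overlapped. Trp53 averaged 406 ± 30.5 in knockout and 452 ± 71.4 in wild-type skin, a log2 fold change of −0.14 (SE 0.12, limma adjusted p = 0.482). The gene lies at chr11:69580359-69591873 on the + strand of GRCm38.

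Atr was the 1 member whose genotypes did not overlap, with each of the 6 knockout libraries above each wild-type library. Such a separation with knockout higher was seen for 1.02% of all genes tested, and with knockout lower for 1.29%. Atr encodes the kinase that answers stalled replication forks and single-stranded DNA, and its gene lies at chr9:95857597-95951781 on the + strand. Its lowest, median and highest values in knockout libraries were 73.5, 96.1 and 142 normalized counts. Wild-type replicates 2 to 6 had 72.6, 36.1, 70.0, 64.4 and 58.1 normalized counts. The closest libraries were knockout replicate 8 and wild-type replicate 2, and the lowest of all, wild-type replicate 3, rests on 8 reads. Atr averaged 100.3 ± 23.0 in knockout (SD, n = 6) and 60.2 ± 14.6 in wild-type skin (SD, n = 5). The log2 fold change was 0.74 (SE 0.21), with an adjusted p of 0.108 in limma and 0.13 in edgeR, and DESeq2 gave 0.68 with an adjusted p of 0.0428. A log2 fold change at least as high was found for 5.78% of all genes tested. With depth as a covariate the value was 0.40, and with differentiated keratinocyte markers as a covariate it was 0.48.

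The other kinases had higher means in knockout than in wild-type skin, with overlapping groups. Atm, the kinase that answers double-strand breaks, had 36.4, 74.3 and 108 normalized counts in the lowest, median and highest knockout libraries, against 10.9, 27.1, 63.4, 56.3 and 53.3 in wild-type replicates 2 to 6. In both genotypes the libraries were spread widely, with wild-type replicates 2 and 3 the lowest and 4 knockout libraries above every wild-type one. Its log2 fold change was 0.89 (SE 0.43, adjusted p = 0.216 in limma) but 0.07 with depth as a covariate and 0.49 without wild-type replicate 2. Chek1, the kinase that ATR activates, had 20.9, 40.9 and 50.7 in the lowest, median and highest knockout libraries, against 19.96, 36.1, 34.5, 28.1 and 32.95 in wild-type replicates 2 to 6. All knockout libraries but replicate 11 lay above every wild-type library. It averaged 39.0 ± 10.1 in knockout and 30.3 ± 6.51 in wild-type skin, a log2 fold change of 0.33 (SE 0.24, limma adjusted p = 0.405). With proliferation markers as a covariate it was 0.04, and without wild-type replicate 2 it was 0.20. Chek2, the kinase that ATM activates, averaged 55.5 ± 9.3 in knockout and 48.9 ± 16.1 in wild-type skin, a log2 fold change of 0.24 (SE 0.24, limma adjusted p = 0.549). Chek2 came to 0.03 without wild-type replicate 2 and to 0.01 with proliferation markers as a covariate.

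The repair factors among these genes gave a median log2 fold change of 0.43 over 3 genes. Mre11a encodes the nuclease subunit of the complex that first binds broken ends. Its lowest, median and highest knockout libraries had 101, 125 and 146 normalized counts, and wild-type replicates 2 to 6 had 109, 99.3, 81.2, 106 and 73.7. Only knockout replicate 8 lay within the wild-type range, and the log2 fold change was 0.43 (SE 0.15, adjusted p = 0.125 in limma).

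Brca1, a factor of homologous recombination, had 37.0, 45.2 and 67.3 normalized counts in the lowest, median and highest knockout libraries, against 45.4, 18.1, 37.8, 32.7 and 36.1 in wild-type replicates 2 to 6. Each knockout library lay above the 3 lowest wild-type libraries, and 3 lay above all of them. Brca1 averaged 49.2 ± 13.3 in knockout and 33.998 ± 10.1 in wild-type skin, with a log2 fold change of 0.54 (SE 0.25, limma adjusted p = 0.206). That value was 0.04 with depth as a covariate, 0.30 with proliferation markers and 0.34 without wild-type replicate 3. H2afx, the histone variant phosphorylated beside breaks, averaged 256 ± 68.5 in knockout and 242 ± 47.4 in wild-type skin, a log2 fold change of 0.06 (SE 0.19, limma adjusted p = 0.862).

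**Figure D2:**
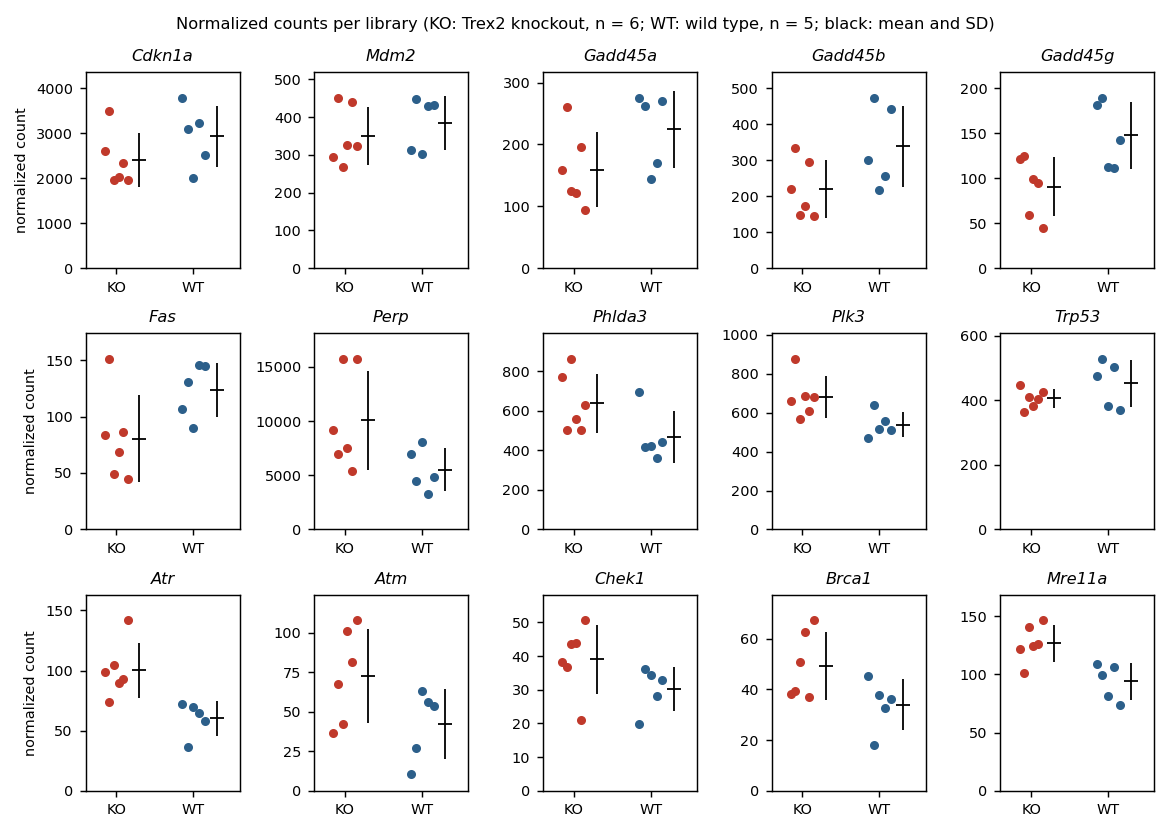
Normalized counts of 15 members in each library, knockout left of wild type, with the mean and SD of each group; each panel starts at 0 and has its own scale. Atr is the 1 panel in which the groups separate, with knockout libraries from 73.5 and wild-type libraries up to 72.6.

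Of the 6 targets that arrest the cycle or growth, 5 had a log2 fold change below 0, and the median was −0.41. Without knockout replicates 9 and 12 the median was −0.23, and 2 of the 6 lay above 0. Cdkn1a encodes p21, the inhibitor of cyclin-dependent kinases through which p53 stops the cycle. Its lowest, median and highest knockout libraries had 1958, 2180.4 and 3498 normalized counts, and wild-type replicates 2 to 6 had 3795, 3100.2, 2011, 3226 and 2523. Knockout replicates 9 and 12 were just below the lowest wild-type library, replicate 4, and the other knockout libraries lay within the wild-type range. Cdkn1a averaged 2399.9 ± 597 in knockout and 2931 ± 684 in wild-type skin, a log2 fold change of −0.29 (SE 0.19, limma adjusted p = 0.36). The value was −0.16 without knockout replicates 9 and 12, −0.19 without wild-type replicate 2, −0.10 with depth and −0.03 with differentiated keratinocyte markers as a covariate. Its 2 half-site matches, shown above, thus belong to a target that did not pass the test between genotypes.

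The Gadd45 genes encode small stress proteins that act on the cycle and on stress kinases, and their 3 log2 fold changes were the lowest of the arrest targets. Gadd45g had 44.8, 96.9 and 124 normalized counts in the lowest, median and highest knockout libraries, against 181, 189.5, 112, 111 and 143 in wild-type replicates 2 to 6. Only knockout replicates 7 and 8 reached the wild-type range. The log2 fold change of Gadd45g came to −0.75 (SE 0.27, adjusted p = 0.133 in limma), while 3.79% of all genes tested had one as low or lower. Gadd45b averaged 219 ± 80.4 in knockout and 338 ± 114 in wild-type skin, a log2 fold change of −0.64 (SE 0.26, limma adjusted p = 0.167). Gadd45a averaged 159 ± 60.8 in knockout and 225 ± 62.0 in wild-type skin, a log2 fold change of −0.53 (SE 0.26, limma adjusted p = 0.221). Summed over the 3 genes, knockout libraries ran from 283 in replicate 12 to 719 in replicate 8, and wild-type replicates 2 to 6 had 759, 925, 474, 538 and 854. Replicates 9, 10 and 12 were below every wild-type sum, and these include the 2 libraries with the most keratinocyte differentiation transcripts. Without replicates 9 and 12 the log2 fold changes of Gadd45a, Gadd45b and Gadd45g were −0.30, −0.39 and −0.39, and with depth as a covariate they were −0.15, −0.23 and −0.25.

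Btg2, which restrains proliferation, averaged 320.4 ± 98.7 in knockout and 354 ± 43.6 in wild-type skin, a log2 fold change of −0.19 (SE 0.19, limma adjusted p = 0.548) that changed sign without replicates 9 and 12 (0.04). Plk3, a stress-responsive polo-like kinase, was the arrest target with a positive value. Its lowest, median and highest knockout libraries had 569, 670.0 and 876 normalized counts, and wild-type replicates 2 to 6 had 468, 641, 515, 556 and 509.9. All wild-type libraries were exceeded by 4 of the 6 knockout libraries. The estimate on the log2 scale was 0.33 (SE 0.13, adjusted p = 0.153 in limma), and it was 0.39 without knockout replicates 9 and 12.

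The feedback genes had overlapping groups and small log2 fold changes. Mdm2, the ligase that p53 induces and that degrades it, had 267, 325 and 452 normalized counts in the lowest, median and highest knockout libraries, against 312, 447, 302, 428 and 431 in wild-type replicates 2 to 6. The groups overlapped across most of their range. Mdm2 averaged 350.4 ± 77.6 in knockout and 384 ± 70.7 in wild-type skin, a log2 fold change of −0.14 (SE 0.17, limma adjusted p = 0.624). The sign turned to 0.14 with differentiated keratinocyte markers and to 0.05 with proliferation markers as a covariate. Ccng1, a cyclin G that also restrains p53, averaged 979.9 ± 131 in knockout and 964 ± 211 in wild-type skin, a log2 fold change of 0.04 (SE 0.16, limma adjusted p = 0.884).

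The sestrins, which protect against oxidative stress and restrain mTORC1, both had overlapping groups. Sesn1 averaged 167 ± 11.6 in knockout and 144 ± 44.5 in wild-type skin, a log2 fold change of 0.26 (SE 0.18, limma adjusted p = 0.369). Its knockout libraries lay close together, between 147 and 179.5, inside a wild-type range of 102 to 207. Sesn2 averaged 328 ± 61.4 in knockout and 354 ± 96.1 in wild-type skin, with a log2 fold change of −0.09 (SE 0.19, limma adjusted p = 0.783). The sign of Sesn2 was positive with proliferation markers (0.067) or differentiated keratinocyte markers (0.030) as a covariate, without knockout replicates 9 and 12 (0.039), without knockout replicate 9 alone (0.011) and without wild-type replicate 2 (0.033).

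The 10 cell death targets were evenly divided, with 5 log2 fold changes above 0, 5 below and a median of −0.06. Fas, a death receptor, was the lowest of them. Its lowest, median and highest knockout libraries had 44.4, 76.0 and 151 normalized counts, and wild-type replicates 2 to 6 had 107, 131, 90.1, 145 and 144. Knockout replicate 8 was the highest of all 11 libraries, and the other 5 were lower than all of wild type. This gave a log2 fold change of −0.71 (SE 0.27, limma adjusted p = 0.149). It was −0.38 without knockout replicates 9 and 12 and −0.23 with differentiated keratinocyte markers as a covariate.

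Perp was the highest of the cell death targets. It encodes a membrane protein of desmosomes that p63 also drives in epidermis, so that it is both a p53 target and a keratinocyte gene. Its lowest, median and highest knockout libraries had 5369.6, 8314 and 15740.2 normalized counts, and wild-type replicates 2 to 6 had 6949, 4463, 8084, 3286 and 4809. Knockout replicates 9 and 12, with 15740.2 and 15738 normalized counts, were nearly equal and far above the rest. The log2 fold change of Perp was 0.82 (SE 0.31, adjusted p = 0.146 in limma), 0.44 without those libraries and 0.10 with differentiated keratinocyte markers as a covariate.

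Phlda3, which inhibits AKT signalling, had 502, 597 and 864 normalized counts in the lowest, median and highest knockout libraries, against 695, 415, 421, 363 and 442 in wild-type replicates 2 to 6. Each knockout library lay above every wild-type library except replicate 2, giving a log2 fold change of 0.46 (SE 0.19, limma adjusted p = 0.166). The BH3-only death genes differed in sign. Bbc3, which encodes PUMA, averaged 16.6 ± 2.89 in knockout and 21.2 ± 6.30 in wild-type skin, a log2 fold change of −0.31 (SE 0.24, limma adjusted p = 0.446). Pmaip1, which encodes NOXA, averaged 90.3 ± 28.1 in knockout and 73.4 ± 13.9 in wild-type skin. Its log2 fold change of 0.27 (SE 0.22, limma adjusted p = 0.461) was 0.02 without knockout replicates 9 and 12.

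The remaining cell death targets had limma adjusted p values of 0.386 to 0.84. Trp53inp1, a stress-induced regulator of p53 and autophagy, had the widest spread of them and the lowest estimate (log2 fold change −0.60, SE 0.42), with knockout replicate 7 at 29.5 and wild-type replicate 3 at 262 normalized counts. The Trp53inp1 estimate was −0.26 without knockout replicate 7, −0.39 without wild-type replicate 3 and −1.04 with depth as a covariate. The death receptor gene Tnfrsf10b had −0.24 on the same scale (SE 0.20), and Zmat3, a zinc finger RNA-binding protein gene, −0.22 (SE 0.18). Eda2r, a receptor for ectodysplasin A2, had 0.10 (SE 0.28), and the nuclease gene Aen had 0.17 (SE 0.17).

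The 5 targets that serve repair and nucleotide supply had a median log2 fold change of −0.01. Polk, a translesion polymerase, had 64.2, 99.0 and 143 normalized counts in the lowest, median and highest knockout libraries, against 109, 149, 118, 123 and 115 in wild-type replicates 2 to 6. Of the knockout libraries 4 were lower than all of wild type and the other 2 were among the wild-type values, with a log2 fold change of −0.27 (SE 0.20, limma adjusted p = 0.406). Ercc5, an endonuclease of nucleotide excision repair, averaged 158 ± 23.4 in knockout and 136 ± 28.1 in wild-type skin, a log2 fold change of 0.23 (SE 0.16, limma adjusted p = 0.38). Xpc and Ddb2 recognize damage in nucleotide excision repair, Ddb2 being a p53 target known from human cells, and Rrm2b is a p53-induced subunit of ribonucleotide reductase. Their log2 fold changes were −0.01 (SE 0.16) for Xpc, 0.05 (SE 0.30) for Ddb2 and −0.02 (SE 0.20) for Rrm2b.

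**Figure D3:**
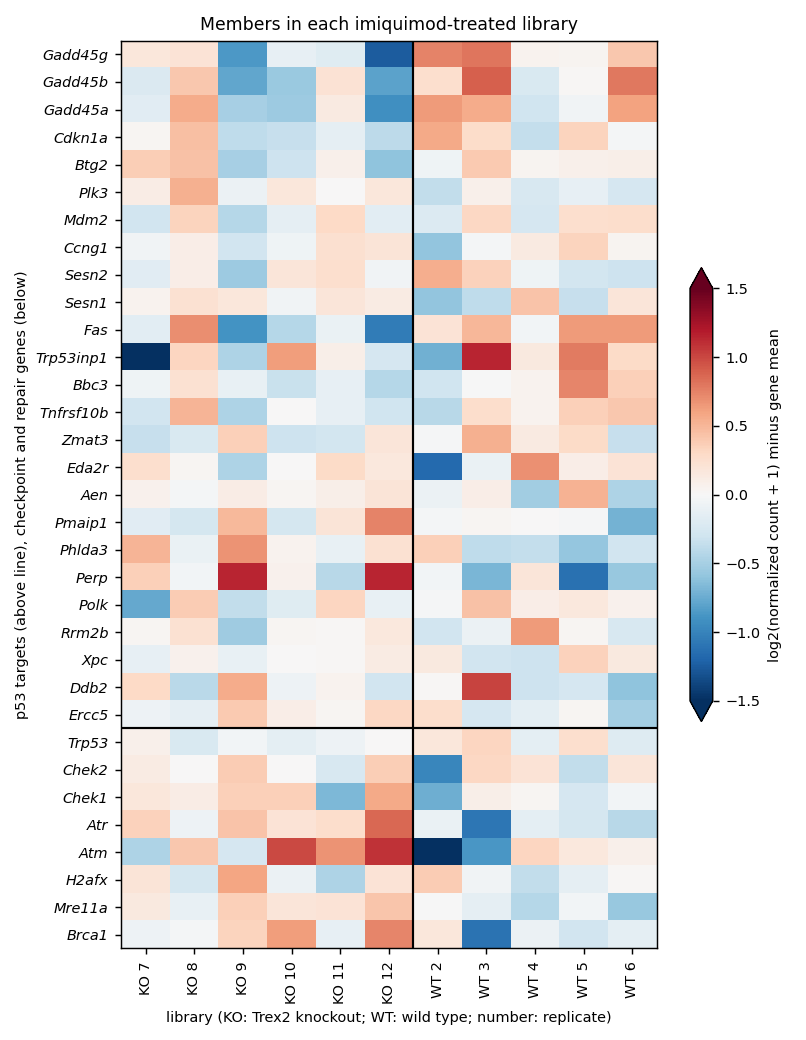
Level of each member in each library as log2(normalized count + 1) minus the gene's mean over the 11 libraries, with the knockout libraries left of the wild-type libraries and targets above checkpoint and repair genes. Knockout replicates 9 and 12 are low for Gadd45 genes, Cdkn1a and Fas and high for Perp. Knockout replicate 10 is low for Gadd45a and Cdkn1a as well, and knockout replicate 8 has the highest knockout value for 13 of 25 targets.

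The spread among libraries of 1 genotype was similar in the 2 lists. The coefficient of variation of the 25 targets had a median of 23.3% in knockout libraries (range 5.31% to 47.9%) and 25.2% in wild-type libraries (range 12.2% to 53.7%). For the checkpoint and repair genes the median was 24.5% in knockout and 22.9% in wild-type libraries. Knockout replicate 8 gave the highest knockout value for 13 of the 25 targets and for 0 of the 8 checkpoint and repair genes. Knockout replicate 12, the library of highest depth, gave the highest knockout value for 5 of the 8 checkpoint and repair genes. It gave the lowest knockout value for 7 of the 25 targets. Among wild-type libraries, replicate 3, the library of lowest depth, was highest for 10 of the 25 targets. The part of depth in these counts was not tested.

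Per kilobase of merged GENCODE exons, Perp was the most abundant member, with 5157 normalized counts per kb in knockout and 2827 in wild-type skin. Cdkn1a came next with 675 in knockout and 825 in wild-type skin, then Phlda3 with 410.1 in knockout and 299.8 in wild-type skin. In the middle of the order Gadd45a, Trp53, Gadd45g and Sesn2 had mean levels of 107, 105, 99.2 and 97.8 per kb over all libraries, closer to each other than the spread among libraries. Chek2 stood at rank 22 of 33 with a mean level of 17.5 per kb. Chek1, Atm, Brca1 and Atr were among the 5 lowest, with mean levels per kb of 7.56, 5.69, 4.96 and 3.47. The place of Atr also reflects 23629 bases of merged exons over its transcripts.

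Other genes of the pathway, in lists that exclude the 33 members, were examined in the same fit. limma and edgeR called 0 genes of these lists, and DESeq2, which called 5.66% of all genes, called Steap3, Trp63, Ppp1r13l, Ercc6 and Fanca. Of 30 other p53 targets 28 were tested, with 13 log2 fold changes above 0, a median of −0.05, and 5 genes in each direction at an unadjusted p under 0.05, against 12.9% of all genes higher and 11.5% lower. The higher ones were Slc19a2, Gtse1, Cdip1, Plk2 and Tigar, and the lower ones Cd82, Bax, Steap3, Dcxr and Dram1. Steap3, a ferrireductase gene, averaged 191 ± 22.6 in knockout and 275 ± 45.3 in wild-type skin, with knockout libraries at 163 to 212 normalized counts below wild-type libraries at 217 to 341, which is a log2 fold change of −0.52 (SE 0.14, limma adjusted p = 0.108, DESeq2 adjusted p = 0.0232). Cd82, a tetraspanin gene, averaged 259 ± 79.6 in knockout and 403 ± 81.6 in wild-type skin, a log2 fold change of −0.67 (SE 0.20, limma adjusted p = 0.109).

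Of 19 genes of the p53 family and its regulators 18 were tested, and 14 had a log2 fold change above 0, with a median of 0.15. At an unadjusted p under 0.05, 5 were higher, namely Trp63, Trp73, Ppp1r13l, Kat2b and Usp7, and 0 lower, against 12.9% and 11.5% of all genes tested. Trp63, the p53 relative that maintains basal keratinocytes, averaged 779.5 ± 349 normalized counts in knockout and 384 ± 152 in wild-type skin, with overlapping ranges of 491 to 1416 in knockout and 293 to 649 in wild-type libraries. Its log2 fold change was 0.99 (SE 0.28), with an adjusted p of 0.108 in limma and 0.0322 in DESeq2, and 0.69 without knockout replicates 9 and 12. Ppp1r13l, which encodes the p53 inhibitor iASPP, averaged 501 ± 147 in knockout and 289 ± 85.5 in wild-type skin. Its log2 fold change was 0.80 (SE 0.22), with an adjusted p of 0.108 in limma and 0.0352 in DESeq2. Both genes stood beside a basal keratinocyte list in which 6 of 6 markers had a log2 fold change above 0, with summed levels of 58226 to 178908 in knockout and 37044 to 91724 in wild-type libraries. The part of cell makeup in these values was not tested.

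Of 60 other checkpoint and DNA repair genes 59 were tested, and 49 had a log2 fold change above 0, with a median of 0.22. At an unadjusted p under 0.05, 14 were higher and 0 lower, against 12.9% and 11.5% of all genes tested. For 3, Ercc6, Xrcc5 and Polb, the groups did not overlap, with knockout above, as for 1.02% of all genes. Among the 14 were also Brca2 and Fancd2, which act in repair of crosslinks and breaks, with overlapping groups. The log2 fold change was 0.81 for Brca2 (SE 0.31, limma adjusted p = 0.15) and 0.86 for Fancd2 (SE 0.33, limma adjusted p = 0.147). The lowest wild-type library had 9.03 normalized counts of Fancd2, where 3 reads were worth up to 13.5. Without knockout replicates 9 and 12 the median was 0.15 and 46 were above 0. Ercc6, which acts in transcription-coupled repair, averaged 56.0 ± 14.0 in knockout and 26.4 ± 4.91 in wild-type skin, with knockout libraries at 36.4 to 69.1 above wild-type libraries at 21.8 to 34.5. Its log2 fold change was 1.03 (SE 0.21), with an adjusted p of 0.108 in limma and 0.00947 in DESeq2. Xrcc5, the gene of the Ku80 subunit that binds broken ends, averaged 178 ± 37.4 in knockout and 125 ± 3.89 in wild-type skin, with knockout libraries at 131.3 to 219 just above wild-type libraries at 122 to 131.2, which is a log2 fold change of 0.48 (SE 0.15, limma adjusted p = 0.112).

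Several of these genes are known to follow the cell cycle, so 4 members were compared with Mki67, a marker of cycling cells. Mki67 itself had 428, 686 and 1077 normalized counts in the lowest, median and highest knockout libraries and 384, 434 and 566 in wild-type libraries, a log2 fold change of 0.60 (SE 0.23, limma adjusted p = 0.146). Across the 11 libraries, log2 levels of Brca1 and Mki67 correlated with a Pearson r of 0.79 (permutation p = 0.00162, adjusted over 4 relations 0.00648) and a Spearman rho of 0.79 (permutation p = 0.0055, adjusted 0.022). Without the 2 libraries farthest from the median of Mki67, which were knockout replicates 9 and 12, r was 0.77 (permutation p = 0.0067, adjusted 0.0268), while rho was 0.67 and no longer passed (permutation p = 0.0593, adjusted 0.237). Within the 6 knockout libraries r was 0.78 (exact permutation p = 0.103, adjusted 0.204). The other permutations exchanged libraries of both genotypes, so their p values also take in the difference between genotypes.

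Cdkn1a ran against Mki67, with r of −0.70 (permutation p = 0.0138, adjusted 0.0275) and rho of −0.65 (permutation p = 0.0339, adjusted 0.0678). Without knockout replicates 9 and 12 r was −0.53 (permutation p = 0.141, adjusted 0.282), which kept its sign and no longer passed the threshold. Within the 6 knockout libraries r was −0.92 (exact permutation p = 0.00556, adjusted 0.0222) and rho −0.94 (exact permutation p = 0.0167, adjusted 0.0667). Chek1 had r of 0.43 (permutation p = 0.173, adjusted 0.173) and rho of 0.39 (permutation p = 0.238), and H2afx had r of 0.49 (permutation p = 0.131, adjusted 0.173) and rho of 0.32 (permutation p = 0.343). Without knockout replicates 9 and 12 both had an r of −0.04. No correlation was computed within the 5 wild-type libraries. Cell makeup and depth vary over the same libraries, as does genotype where both groups were used. The part of each in these relations was not tested.

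**Figure D4:**
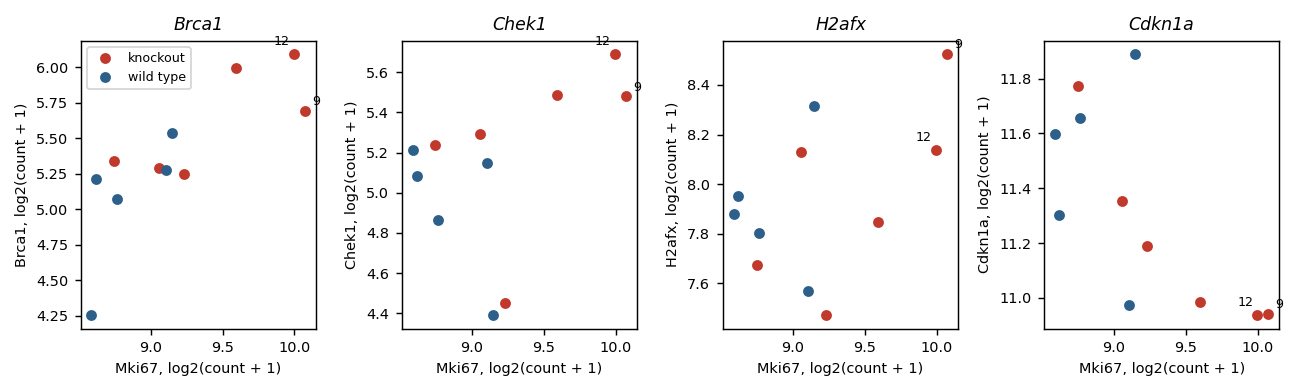
Level of Brca1, Chek1, H2afx and Cdkn1a against Mki67 in each library, both as log2(normalized count + 1), with knockout libraries in red, wild-type libraries in blue and knockout replicates 9 and 12 numbered. Brca1 goes up with Mki67 (r = 0.79 over 11 libraries) and Cdkn1a goes down (r = −0.70), while for Chek1 and H2afx r is −0.04 once the numbered libraries are left out.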

How the data were processed

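The deposited values are a normalized signal per gene, each library's read counts over its size factor, for 11 libraries of polyadenylated RNA from pulverized back skin, per the labels' protocols. The submitters' processing notes name TopHat2 2.0.8, featureCounts 1.4.6, DESeq2 1.8.1 and GRCm38. Annotation version and strandedness of counting were not given in the sources used here, and reads of overlapping antisense genes cannot be told apart. Dividing by the step that 1 read makes gave whole numbers throughout (100.0% within 0.01), used as reads in the count tests. Replicates of a genotype differed beyond sampling noise (chi-square over degrees of freedom at least 4.35), and intervals from reads would cover counting error only.

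Genotypes were compared with limma 3.58.1 (R 4.3.3) using a mean-variance trend on log2(value + 1), for genes averaging 10 or more, two-sided, with Benjamini-Hochberg adjustment over all genes tested at 0.05. The pseudocount understates changes of low genes. Recovered reads were also tested with edgeR 4.0.16 and DESeq2 1.42.0. Correlations used 100000 permutations, or all of them within knockout libraries. The limma comparison was tested on simulated counts, which held no variation shared by many genes of a library. Positions and lengths come from GENCODE M21, promoter windows from RefSeq. Levels of 4 genes were found under older symbols.

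The members, the lists and the tests were chosen with earlier results of these data known. Full values were to be given for members with separate groups or called by any tool and for Trp53, Cdkn1a, Mdm2, Chek1 and Brca1. The other lists were to give up to 4 genes past the threshold in each direction or else the 2 of smallest p. Atm, Mre11a, Plk3, Polk, Phlda3, Fas, Perp, the Gadd45 genes, Bax, Slc19a2, Fanca and the genes named for an unadjusted p or for separate groups in the other lists were chosen after values were seen. Alternatives were pseudocounts of 0.5 and 5, no minimum or a minimum of 50, TMM and upper quartile scaling, the count tests, covariates for depth, proliferation and differentiated keratinocytes, and leaving out each library or knockout replicates 9 and 12.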

Additional observations from a re-analysis of the deposited data

Results flagged for a closer look

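A single library stood far from the others of its genotype in 7 of the 66 combinations of member and genotype examined, where chance gives about 1 in 20. The gap between that library and its nearest neighbour is given as a share of the whole range of its group.

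In knockout skin, Plk3 was highest in replicate 8, with 876 normalized counts against 569 to 683 in the other libraries (gap 0.63). Rrm2b was lowest in knockout replicate 9, with 39.7 against 58.4 to 67.9 (gap 0.663). In wild-type skin, Rrm2b was highest in replicate 4, with 90.1 against 47.2 to 59.0 (gap 0.724). Pmaip1 was lowest in wild-type replicate 6, with 48.6 against 78.0 to 81.2 (gap 0.902), and this gene had the most uneven group of all. Phlda3 was highest in wild-type replicate 2, with 695 against 363 to 442 (gap 0.761). Wild-type replicate 3, the library of lowest depth, was highest for Btg2, with 428.7 against 314 to 347 (gap 0.714), and for Ddb2, with 40.6 against 12.6 to 19.96 (gap 0.736). The Ddb2 value rests on few reads, since 1 read in wild-type replicate 3 was worth 4.51 normalized counts. The fewest Ddb2 reads in any library were 8.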

How the results depend on the processing

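Of the 33 members, 24 kept the sign of their log2 fold change under every alternative that gave them a value (22 or 23 each, since Bbc3, Chek1, Brca1 and Ddb2 are below the minimum of 50), and the 9 that did not had values of at most 0.19 in size. Over all genes the count past the threshold was 2 in limma, 4 in edgeR and 617 in DESeq2, and 2 to 740 when 1 library was left out, the 740 being without wild-type replicate 4. DESeq2 called 1 checkpoint and repair member (Atr), 1 of the other p53 targets, 2 of the p53 family and regulators, and 2 of the other checkpoint and repair genes, Ercc6 and Fanca (0.039). Leaving out 1 library gave 0 to 2, 0 to 2 and 0 to 1 calls in those last 3 lists. The 2 other targets, without wild-type replicate 4, were Bax (limma adjusted p = 0.0361) and Slc19a2 (0.036).

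With differentiated keratinocyte markers as a covariate the median of the targets was 0.030 (0.028 with proliferation markers), and with proliferation markers that of the checkpoint and repair members was 0.17. For Mki67, the correlation without the 2 farthest libraries was −0.042 for Chek1, −0.039 for H2afx and −0.53 for Cdkn1a, and within knockout libraries 0.78 for Brca1.

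Signs turned as follows. With proliferation markers: Mdm2 0.051, Sesn2 0.067, Btg2 0.14, Rrm2b 0.11, Xpc 0.0085, Ddb2 −0.043 and H2afx −0.20. With differentiated keratinocyte markers: Mdm2 0.14, Sesn2 0.030, Btg2 0.061, Xpc 0.10 and H2afx −0.10. With depth: Ccng1 −0.10, Btg2 0.15 and Eda2r −0.013. Eda2r was −0.032 in edgeR and −0.035 in DESeq2. Without knockout replicates 9 and 12: Sesn2 0.039, Btg2 0.038, Rrm2b 0.067, Ddb2 −0.0078 and H2afx −0.12. Leaving out 1 library gave −0.18 to 0.033 for Sesn2, −0.099 to 0.13 for Ccng1, −0.094 to 0.14 for Rrm2b, −0.092 to 0.072 for Xpc, −0.095 to 0.31 for Ddb2, −0.18 to 0.29 for Eda2r and −0.052 to 0.16 for H2afx. The causes were not tested.

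No paired analysis was possible because the genotypes share no replicate number (7 to 12 in knockout, 2 to 6 in wild type). Depth limits the low members most, since wild-type libraries held as few as 4 reads of Brca1 and Bbc3 and 6 of Atm.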
